A study of Mus musculus with 8 samples.

Results

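The RNAs of 8 genes through which a mouse oocyte sends and receives growth signals were followed across meiotic maturation and across injection of the RNA-decay adaptor BTG4. The genes were taken by symbol: the ligands Gdf9, Bmp15, Bmp6 and Fgf8, the receptors Kit and Igf2r, the ligand antagonist Fst and the proprotein convertase Furin. Of these 8 genes, 7 were listed in all of the tables used and all 7 entered the fit, among 13968 genes tested and 15962 genes listed in every library. Fst was not listed in any of the tables and is not followed further.

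Oocytes came from ICR female mice 6 weeks old. The libraries fell into 4 groups of 2. GV oocytes are fully grown and arrested in prophase with an intact nucleus, called the germinal vesicle. MII oocytes had matured in culture to the second metaphase arrest. The others were MII oocytes that had been microinjected with cRNA, made from a Myc-tagged vector, for wild-type BTG4 (Btg4wt) or for a mutant in which a threonine and the serines next to it were replaced with alanine (Btg4tm). Both injected groups kept their own Btg4 gene, and the GV and MII groups were uninjected controls. Each library held 15 oocytes without their zona pellucida, and cDNA was primed on poly(A) with oligo(dT). The labels do not say whether the 2 libraries of a group came from different females, so the p-values measure the spread between these libraries, which may be technical.

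Gdf9 and Bmp15 are made in the ovary mainly by oocytes. They belong to the TGF-beta family, are secreted as precursors that a furin-like convertase must cut, and act on the granulosa and cumulus cells around the oocyte. Bmp6 is a family member with wider expression, and Fgf8 acts together with the BMP ligands to promote glycolysis in cumulus cells. In the other direction, granulosa cells present KIT ligand to the KIT receptor on the oocyte, which signals through PI3K and RAS and is known for its part in follicle activation and oocyte growth. Igf2r binds IGF2 and mannose 6-phosphate and carries proteins tagged with the latter to lysosomes, and follistatin, the product of Fst, binds activins and some BMPs. In maturing oocytes transcription is silent, BTG4 brings the CCR4-NOT deadenylase to maternal mRNAs, and the tail an mRNA carries depends in part on short elements near the end of its 3′ UTR.

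Those ends are shown for Gdf9, the most abundant of the 7, and for Bmp6, Kit and Furin. The sequences are 30 bases of the annotated 3′ UTR on GRCm38 (GENCODE M21, an annotation earlier than the one used for counting), read 5′ to 3′ on the strand of the gene. Capitals mark a cytoplasmic polyadenylation element (TTTTAT or TTTTAAT) or a polyadenylation hexamer (AATAAA or ATTAAA).
Gdf9, chr11:53437860-53437889, plus strand: ctgtggTTTTATgtgacggaagAATAAAct
Bmp6, chr13:38500212-38500241, plus strand: atttattgtctaTTTTATatccattttgct
Kit, chr5:75656674-75656703, plus strand: gttgacagttctgaagaattctAATAAAaa
Furin, chr7:80389213-80389242, minus strand: taatgttagaggttttaaagtgATTAAAcg

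Gdf9 carried both kinds of letters side by side, with the TTTTAT starting 39 bases and the hexamer 23 bases before the annotated end. Bmp6 had the TTTTAT 79 bases from its end and no hexamer in the last 40 bases. Igf2r had a TTTTAAT 63 bases from its end and a hexamer. Bmp15, Kit and Furin had the hexamer and no polyadenylation element in the last 100 bases. Among the 10235 tested genes with a matched coding transcript and a 3′ UTR of at least 100 bases, 19.9% held TTTTAT or TTTTAAT in the last 100 bases and 76.2% held the hexamer in the last 40. The search read the strand of the transcript only, and a match to letters is not a shown site. The annotated 3′ UTRs ran from 360 bases in Gdf9 to 2177 in Kit among these genes. In that whole length TTTTAT or TTTTAAT matched 3 times each in Bmp15, Kit and Furin, 2 times in Bmp6 and 1 time each in Gdf9 and Igf2r. At least 1 such match was held by 62.1% of the 10235 genes. Over the whole 3′ UTR, the letters TGTANATA, read by Pumilio proteins, stood 5 times in Kit, once each in Bmp6 and Igf2r, and nowhere in Gdf9, Bmp15 or Furin, against 25.0% of the same genes with at least 1 match.

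Levels are given as scaled TPM, the deposited TPM (transcript abundance per library, in parts of a fixed total) divided by a factor per library (0.948 to 1.11) that centres the libraries on the median gene. TPM are already divided by gene length. A difference is the difference of log2(scaled TPM + 1) fitted with limma over all 8 libraries, which understates the change of low genes. Genes past both limits, an adjusted p below 0.05 (Benjamini-Hochberg, over every gene tested) and a difference of more than 1 on the log2 scale, are named as called, and those past the first limit alone as having differed. All directions are relative to the median gene. RNA encoded by the mitochondrial genome took 0.625% to 0.651% of TPM in GV, 2.60% to 2.71% in MII, 1.75% to 2.05% in Btg4wt and 0.765% to 1.02% in Btg4tm. Scaling to those RNAs moved the median of all genes by -1.74 in MII against GV and by 0.88 in Btg4tm against Btg4wt, and a direction that turned under it is marked as such. In such bulk libraries a lower RNA content per oocyte and loss of the poly(A) tail used for priming cannot be told apart.

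The 2 libraries of a group correlated at r = 0.982 to 0.987 on the log2 scale over genes. The 12 oocyte markers were listed in every library, with a summed level of 31940 to 43680 scaled TPM. Of 20 markers of cumulus and granulosa cells, 10 were in no table, among them Has2, Foxl2, Amhr2 and Fst itself. The 8 markers in all tables summed to 24.7 to 24.8 scaled TPM in GV, 32.3 to 35.2 in MII, 28.3 to 32.9 in Btg4wt and 28.7 to 34.2 in Btg4tm, mostly from Cyp19a1, and to 6.91 to 15.0 without it. The part of these cells in the results was not tested. Btg4 RNA itself stood at 2722 ± 102 scaled TPM in GV, 5897 ± 149 in MII, 5344 ± 235 in Btg4wt and 3897 ± 243 in Btg4tm (SD, n = 2 in each), so neither injected group lay above the uninjected MII oocytes in these tables. The injected groups are therefore named by their labels, since the Btg4 values do not by themselves show the overexpression. The authors report it at the protein level, by immunoblots of oocytes for both BTG4 forms.

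Gdf9 and Bmp15 were among the most abundant RNAs of every library. Gdf9 (ENSMUSG00000018238, GRCm38 chr11:53431023-53437904, plus strand, 2 exons) read 6424 and 5669 scaled TPM in GV, 7603 and 6828 in MII, 6411 and 6371 in Btg4wt, and 9075 and 7462 in Btg4tm. By group mean it ranked between 12 and 17 of 15962 genes in all 4 groups. Both Btg4tm libraries lay above both Btg4wt libraries, and the GV and Btg4wt values interleaved. Gdf9 differed between Btg4tm and Btg4wt by 0.37 ± 0.13 (log2, SE, adjusted p = 0.0467), the smallest of the differences that passed. That pass was marginal: the adjusted p rose above 0.05 in 9 of 19 alternatives, among them TPM as deposited (0.0545), no filter (0.0804), the 4 libraries alone (0.0863) and eBayes without trend (0.0945). It also did so without either MII library (0.0854 and 0.0867), either Btg4wt library (0.143 and 0.155) or Btg4tm replicate 1 (0.22, adjusted p = 0.197). MII and GV were 0.26 ± 0.13 apart, with an adjusted p of 0.12 and a 95% interval of -0.04 to 0.56, and under mitochondrial scaling MII was called lower (-1.96, adjusted p = 8.35e-06).

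Bmp15 (ENSMUSG00000023279, chrX:6314107-6320721, minus strand, 2 exons) read 1884 and 2480 scaled TPM in GV, 3223 and 3034 in MII, 4481 and 5052 in Btg4wt, and 2281 and 2683 in Btg4tm, with ranks between 30 and 47. The Btg4wt libraries were the highest, the MII libraries came next, and the GV and Btg4tm values overlapped. Bmp15 was higher in MII than in GV by 0.53 ± 0.15 (adjusted p = 0.0146), a direction that turned with mitochondrial scaling, and lower in Btg4tm than in Btg4wt by 0.94 ± 0.15 (0.00114), which also turned under that scaling, to 0.14. The first of these missed the threshold without GV replicate 1 (0.33, adjusted p = 0.0876), without MII replicate 1 (0.5, 0.0755), with TPM as deposited (0.37, 0.059) and under quantile normalization (0.09, 0.718). The second passed the fold limit without Btg4wt replicate 1 (-1.04) and without Btg4tm replicate 2 (-1.06). Btg4wt lay above MII by 0.61, with an unadjusted p of 0.00371 and an adjusted p of 0.233, and was called higher under mitochondrial scaling (1.10, 0.0491). Btg4tm and MII, neighbours in the order of levels, differed by 0.34 with an adjusted p of 0.0939, and Btg4tm and GV by 0.20 with an adjusted p of 0.427. Both directions, MII above Btg4tm and Btg4tm above GV, turned under mitochondrial scaling.

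The balance of the pair of ligands set Btg4wt apart from the other groups and did not separate GV from MII. The ratio of Gdf9 to Bmp15 within a library, which no scaling can change, was 3.41 and 2.29 in GV, 2.36 and 2.25 in MII, 1.43 and 1.26 in Btg4wt, and 3.98 and 2.78 in Btg4tm. The Btg4wt libraries held the lowest ratios and did not overlap with any other group, while the GV and MII ranges overlapped. An exact permutation test of 2 libraries against 2 cannot go below p = 0.333, so these ratios are a description.

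Bmp6 (ENSMUSG00000039004, chr13:38345107-38500302, plus strand, 7 exons) was a scarcer ligand. It read 32.5 and 33.1 scaled TPM in GV, 12.0 and 13.6 in MII, 15.0 and 12.2 in Btg4wt, and 26.4 and 24.1 in Btg4tm. The MII and Btg4wt libraries formed a low set whose values interleaved, the GV libraries were the highest, and the Btg4tm libraries lay between them without overlap. Bmp6 was called lower in MII than in GV, with a fall of 1.29 ± 0.15 (adjusted p = 0.000126, 2.45-fold), and differed between Btg4tm and Btg4wt by 0.85 ± 0.15 (0.00186), higher in the mutant but under the fold limit. Btg4tm stood 0.37 below GV with an adjusted p of 0.149. Txndc5, a protein-coding gene on the opposite strand, overlaps 5.74% of the exonic bases of Bmp6, and counting did not use strand. Txndc5 itself read 101 ± 0.815 scaled TPM in GV, 86.6 ± 14.4 in MII, 63.6 ± 3.30 in Btg4wt and 113 ± 20.4 in Btg4tm. Its part in the Bmp6 values was not tested.

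Fgf8 (ENSMUSG00000025219, chr19:45736798-45742915, minus strand, 5 exons) showed the widest range of the 7. It read 391 and 463 scaled TPM in GV, 26.4 and 20.6 in MII, 20.2 and 24.4 in Btg4wt, and 231 and 251 in Btg4tm. Every GV and Btg4tm library was far above every MII and Btg4wt library, and MII and Btg4wt interleaved. Its rank by group mean went from 336 in GV to 4062 in MII and 4244 in Btg4wt, and stood at 669 in Btg4tm. Fgf8 was called lower in MII than in GV, by 4.13 ± 0.16 on the log2 scale (adjusted p = 6.13e-07, 17.5-fold), and higher in Btg4tm than in Btg4wt by 3.38 ± 0.16 (2.24e-06, 10.4-fold). Across the 19 alternative settings the first difference ran from -6.28 to -3.95 and the second from 3.15 to 4.43. The Btg4tm libraries were still 0.82 ± 0.16 below GV (adjusted p = 0.0166), a difference that missed the threshold without GV replicate 2 (-0.68, 0.122) and without Btg4tm replicate 1 (-0.78, 0.0715).

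**Figure D1:**
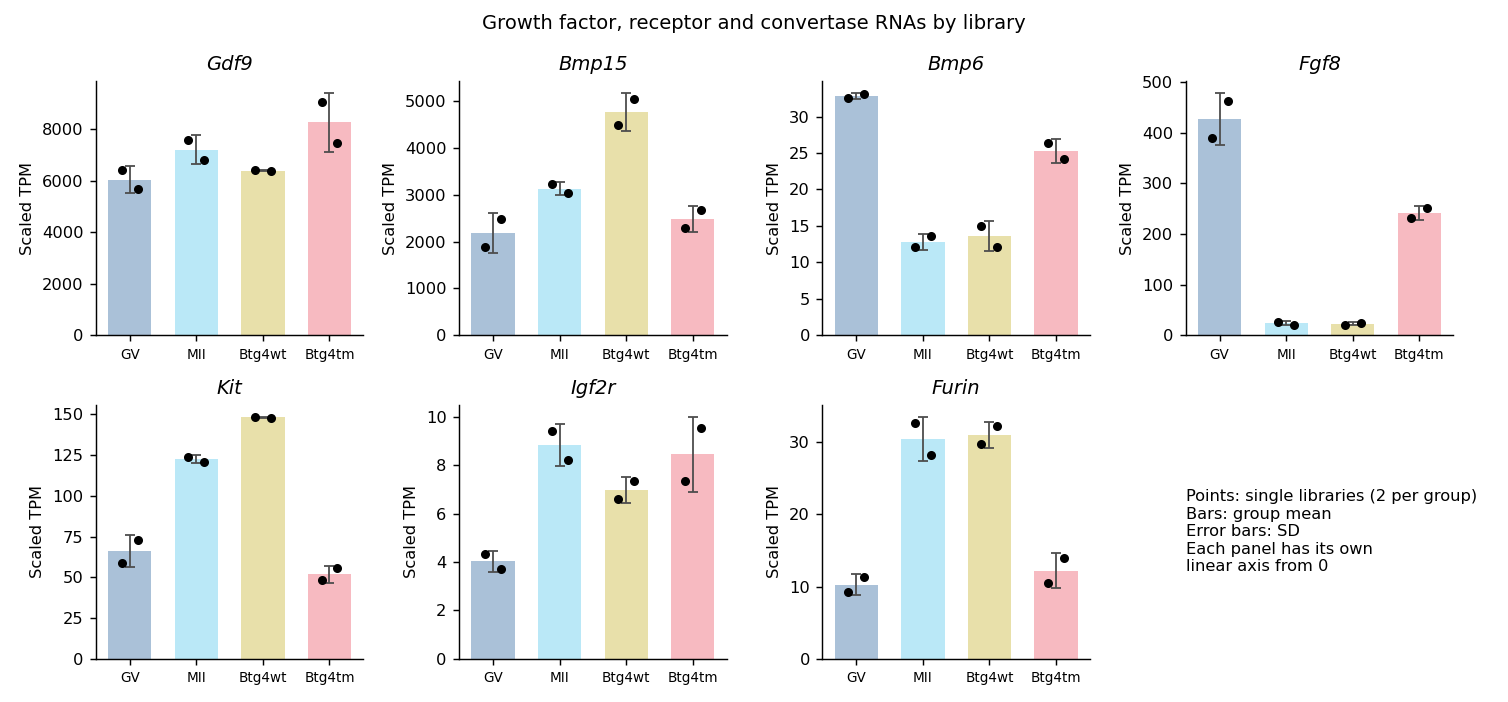
Scaled TPM of each gene (vertical axes, linear, from 0, one scale per panel) in the 4 groups (horizontal axes). Points are single libraries, bars group means and error bars SD (n = 2): Fgf8 fell from 427 ± 51.4 in GV to 23.5 ± 4.10 in MII and stood at 241 ± 14.2 in Btg4tm, while Kit and Furin had their high values in MII and Btg4wt, with directions in MII against GV that turned under mitochondrial scaling.

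Kit (ENSMUSG00000005672, chr5:75574916-75656722, plus strand, 21 exons), the receptor tyrosine kinase for KIT ligand, went the other way. It read 59.0 and 72.8 scaled TPM in GV, 124 and 121 in MII, 148.4 and 148.0 in Btg4wt, and 48.2 and 55.6 in Btg4tm. Both Btg4tm libraries were below both GV libraries, and all 4 of these were below every MII and Btg4wt library. Kit was higher in MII than in GV by 0.89 ± 0.13 (adjusted p = 0.000436), under the fold limit except without GV replicate 2 (1.04) and under quantile normalization (1.06), and with a direction that turned under mitochondrial scaling. It was called lower in Btg4tm than in Btg4wt, by 1.5 ± 0.13 on the log2 scale (adjusted p = 4.12e-05, 2.83-fold). Under mitochondrial scaling this was no call (-0.43, 0.0835). Against uninjected MII oocytes Btg4tm was lower by 1.23 (0.000113), a direction that turned under mitochondrial scaling. With that scaling Btg4wt lay 0.76 above MII, more than Btg4tm lay below Btg4wt. Neither MII and Btg4wt (0.27, adjusted p = 0.452) nor Btg4tm and GV (-0.34, 0.127) differed past the threshold.

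Kitl, the ligand of KIT, is outside the genes chosen and was looked at as the partner of Kit. It is also one of the cumulus and granulosa cell markers read above, and the part of those cells in its values was not tested. The level of Kitl was low, at 2.31 ± 0.373 scaled TPM in GV, 5.39 ± 0.461 in MII, 5.44 ± 0.598 in Btg4wt and 2.79 ± 0.00770 in Btg4tm. Kitl was higher in MII than in GV by 0.95 (adjusted p = 0.0031) and lower in Btg4tm than in Btg4wt by 0.76 (0.0122), and both directions turned under mitochondrial scaling. The ratio of Kit to Kitl within a library was 22.9 and 35.5 in GV, 24.5 and 21.1 in MII, 25.3 and 29.5 in Btg4wt, and 17.2 and 20.0 in Btg4tm. The GV ratios spanned those of Btg4wt and ran into those of MII, and the Btg4tm ratios were the lowest.

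Igf2r (ENSMUSG00000023830, chr17:12682406-12769664, minus strand, 48 exons) was the scarcest of the 7. It read 4.33 and 3.72 scaled TPM in GV, 9.43 and 8.22 in MII, 6.6 and 7.34 in Btg4wt, and 7.36 and 9.55 in Btg4tm. The GV libraries were the lowest, the Btg4wt libraries came next, and the MII and Btg4tm values overlapped. Igf2r was higher in MII than in GV by 0.97 ± 0.19 (adjusted p = 0.00257), which turned under mitochondrial scaling, and higher in Btg4tm than in GV by 0.91 ± 0.19 (0.0243). Without GV replicate 1, GV replicate 2 or Btg4tm replicate 2, the adjusted p of the latter was 0.0617, 0.131 and 0.0942, and under mitochondrial scaling it was 0.198. The Btg4tm and Btg4wt groups were 0.24 apart, with a 95% interval of -0.21 to 0.68 and an adjusted p of 0.338. Airn, a noncoding RNA on the opposite strand of this locus, shares no exonic base with it.

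Furin (ENSMUSG00000030530, chr7:80388585-80405436, minus strand, 16 exons), the convertase that can cut the TGF-beta family precursors, followed Kit. It read 9.24 and 11.3 scaled TPM in GV, 32.6 and 28.3 in MII, 29.7 and 32.2 in Btg4wt, and 10.5 and 13.9 in Btg4tm. The GV and Btg4tm values overlapped, as did the MII and Btg4wt values, with a clear gap between the low and the high set. Furin was called higher in MII than in GV, by 1.48 ± 0.18 (adjusted p = 0.000147, 2.79-fold), although it fell below 0, to -0.61, under mitochondrial scaling. It was called lower in Btg4tm than in Btg4wt by 1.29 ± 0.18 (0.000495, 2.44-fold), and under mitochondrial scaling the difference was -0.26 (0.334). Gm44851, an antisense gene that did not enter the fit, overlaps 1.29% of the exonic bases of Furin.

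Measured against its substrates within each library, Furin RNA again set GV and Btg4tm apart from MII and Btg4wt. The ratio of Gdf9 to Furin was 695 and 501 in GV, 233 and 242 in MII, 216 and 198 in Btg4wt, and 864 and 537 in Btg4tm. The ratio of Bmp15 to Furin was 204 and 219 in GV, 98.9 and 107 in MII, 151 and 157 in Btg4wt, and 217 and 193 in Btg4tm. In both ratios the GV and Btg4tm libraries overlapped and lay above all MII and Btg4wt libraries. Unlike for Furin alone, MII and Btg4wt did not overlap in either ratio, with Btg4wt the lower for Gdf9 and MII the lower for Bmp15. These ratios hold whatever the scaling between libraries.

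**Figure D2:**
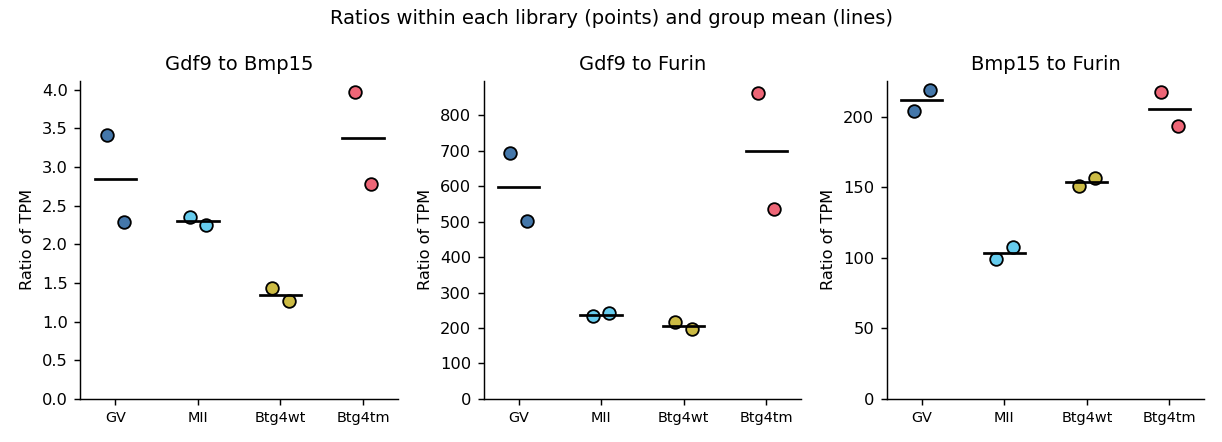
Ratios of TPM within each library (vertical axes, linear, from 0) by group (horizontal axes), with points for libraries and lines for group means, for Gdf9 to Bmp15, Gdf9 to Furin and Bmp15 to Furin. In the panels with Furin, the GV and Btg4tm points lie above all MII and Btg4wt points, and in the first panel the Btg4wt points, 1.43 and 1.26, are the lowest.

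Read by comparison, maturation moved the growth signal RNAs unequally. In MII against GV, 1 of the 7 was called higher (Furin), where 12.5% of all genes were, and 2 were called lower (Fgf8 and Bmp6), where 24% of all genes were. At adjusted p alone 6 of 7 differed, beside 62.6% of all genes. The median difference of the 7 was 0.53, beside -0.002 over all genes. This gap was one of median scaling: the middle value of the 7, that of Bmp15, was -1.68 beside -1.74 over all genes under mitochondrial scaling. Under quantile normalization it was 0.09 beside 0.27. Counts of 1 and 2 in 7 are near the background shares. Without GV replicate 1 or MII replicate 2, Igf2r joined the genes called higher, and without GV replicate 2 Kit did, making 2 in each case. Under mitochondrial scaling, 0 were called higher and 5 lower.

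In Btg4tm against Btg4wt, 1 of the 7 was called higher (Fgf8; 18.1% of all genes) and 2 were called lower (Kit and Furin; 7.94% of all genes). At adjusted p alone 6 of 7 differed, beside 49.5% of all genes, and the median was 0.24 beside 0.008. The middle value, that of Igf2r, was 1.19 beside 0.88 under mitochondrial scaling and 0.02 beside -0.18 under quantile normalization. Under mitochondrial scaling, 4 were called higher and 0 lower. This comparison and MII against GV share no library. Set side by side, Fgf8, Bmp6, Bmp15, Kit and Furin each had one sign in maturation and the other between the injected groups, and Gdf9 and Igf2r had a positive sign in both, and the MII-against-GV signs of all but Fgf8 and Bmp6 turned under mitochondrial scaling, as did that of Bmp15 between the injected groups. The difference of Btg4tm from Btg4wt, with its sign turned, amounted to 81.8% of the GV-to-MII difference for Fgf8 and 66.1% for Bmp6 on the log2 scale. The same share was 86.9% for Furin, 168% for Kit and 177% for Bmp15, and -143% for Gdf9 and -24.7% for Igf2r, all of which rest on a GV-to-MII direction that turned under mitochondrial scaling. The Gdf9 share divides by a difference that missed the threshold (adjusted p = 0.12), and the Igf2r share has such a difference on top (0.338). All shares are for median scaling. Under mitochondrial scaling the differences were -6.28 and 4.43 for Fgf8, and -3.38 and 1.88 for Bmp6.

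**Figure D3:**
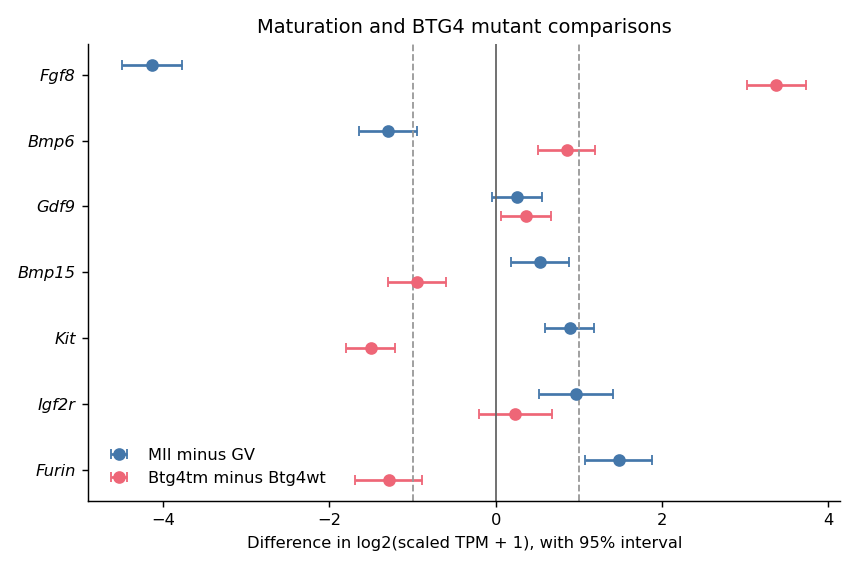
Difference in log2(scaled TPM + 1) for each gene (rows) with its 95% interval from limma (horizontal axis, dashed lines at the 2-fold limit), for MII minus GV and Btg4tm minus Btg4wt. Fgf8 reads -4.13 and 3.38 and Furin 1.48 and -1.29, and the values above 0 in MII minus GV fell below 0 under mitochondrial scaling.

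No member was called in Btg4wt against MII, where 0% of all genes were called in either direction. By limma at an unadjusted p under 0.05, 1 of the 7 (Bmp15) and 1655 of all genes differed. The other members had adjusted p-values of 0.452 to 0.973 there. No member was called in Btg4tm against GV either, where 1.02% of all genes were called higher and 1.02% lower. By limma at an unadjusted p under 0.05, 5 of the 7 and 4147 of all genes differed in that comparison, and 2 (Fgf8 and Igf2r) passed the adjusted p, beside 11.4% of all genes. The injected and the control groups came from tables that listed different genes, 16448 and 17384, so injection and table cannot be told apart from the group in these comparisons.

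**Figure D4:**
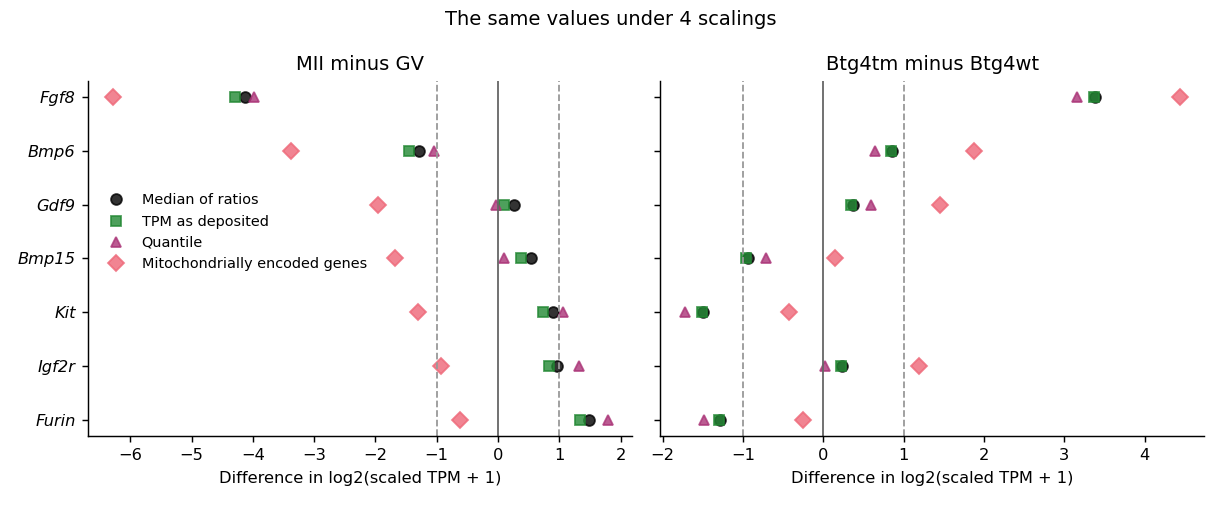
Differences in log2(scaled TPM + 1) of the 7 genes (rows, horizontal axes) under 4 scalings between libraries, for MII minus GV and for Btg4tm minus Btg4wt, with dashed lines at the 2-fold limit. Fgf8 and Bmp6 stay on one side of 0 in both panels, the other 5 turn to the left of 0 in MII minus GV under mitochondrial scaling (Gdf9, at -0.03, under quantile normalization too), and Bmp15 alone turns in Btg4tm minus Btg4wt.

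The KIT pathway around the receptor was read from a list of 39 genes for KIT, PI3K and RAS signalling, of which 36 were tested. In MII against GV, 10 were called higher and 4 lower (12.5% and 24% of all genes), with a median difference of 0.68 beside -0.002 over all genes, and under mitochondrial scaling 0 were called higher and 28 lower. In Btg4tm against Btg4wt, 2 were called higher and 10 lower (18.1% and 7.94% of all genes), with a median of -0.47 beside 0.008, and under mitochondrial scaling 6 were called higher and 1 lower. The 10 lower calls included Kit itself.

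Pik3r1, a regulatory subunit of PI3K, was called lower in Btg4tm than in Btg4wt, at -2.12 (adjusted p = 1.76e-05), from 59.8 ± 0.122 scaled TPM to 13.0 ± 0.898. It stood at 55.3 ± 0.353 in MII and 23.3 ± 4.89 in GV, a difference of 1.23 (0.000188) that turned under mitochondrial scaling. A second regulatory subunit, Pik3r3, gave -1.63 (1.92e-05) between the injected groups and 1.04 (0.000122) in maturation, where it turned too. Between the injected groups it was under the fold limit with mitochondrial scaling (-0.59, 0.0378). Tsc1, an inhibitor of mTORC1 signalling, was called lower in Btg4tm than in Btg4wt by 1.82 (0.000159). That difference was under the fold limit with mitochondrial scaling (-0.829, 0.00938). Its difference of 0.61 in MII against GV (0.028) stayed under the fold limit and turned under mitochondrial scaling. Hras, a RAS GTPase, ran against these: it fell from 38.1 ± 7.15 in GV to 3.41 ± 1.67 in MII, by 3.19 on the log2 scale (adjusted p = 2.18e-05), and was higher in Btg4tm than in Btg4wt by 2.73 (7.98e-05), at 25.6 ± 1.85 against 3.01 ± 0.368.

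Of the pathway genes, 4 were called higher in MII and lower in Btg4tm (Pik3r1, Pik3r3, Rictor and the phosphatase gene Ptpn11), which is 40% of the 10 called higher and 40% of the 10 called lower. Over all genes the same overlap took 26.5% of those called higher in MII and 41.9% of those called lower in Btg4tm. The MII-against-GV directions of all 4 turned under mitochondrial scaling, with Rictor at -0.82 and Ptpn11 at -0.98. Between the injected groups Rictor (-0.48, adjusted p = 0.111) and Ptpn11 (-0.335, 0.163) were then no calls. The transcription factor gene Foxo3, a target of AKT in oocytes, was higher in Btg4tm than in GV by 1.25 (adjusted p = 0.00359), as was Akt1 (1.01, 0.048). These were the 2 genes of the list called there, where 1.02% of all genes were called higher. Under mitochondrial scaling 0 were called higher and 6 lower. Foxo3 and Akt1 were also higher in MII than in GV (1.19, 2.9e-05 and 0.98, 0.0129), where that scaling called 0 genes of the list higher. Between Btg4tm and Btg4wt they read -0.07 (0.597) and -0.16 (0.649). Foxo3 and Akt1 were named after their values were seen, as were Rictor and Ptpn11.

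**Figure D5:**
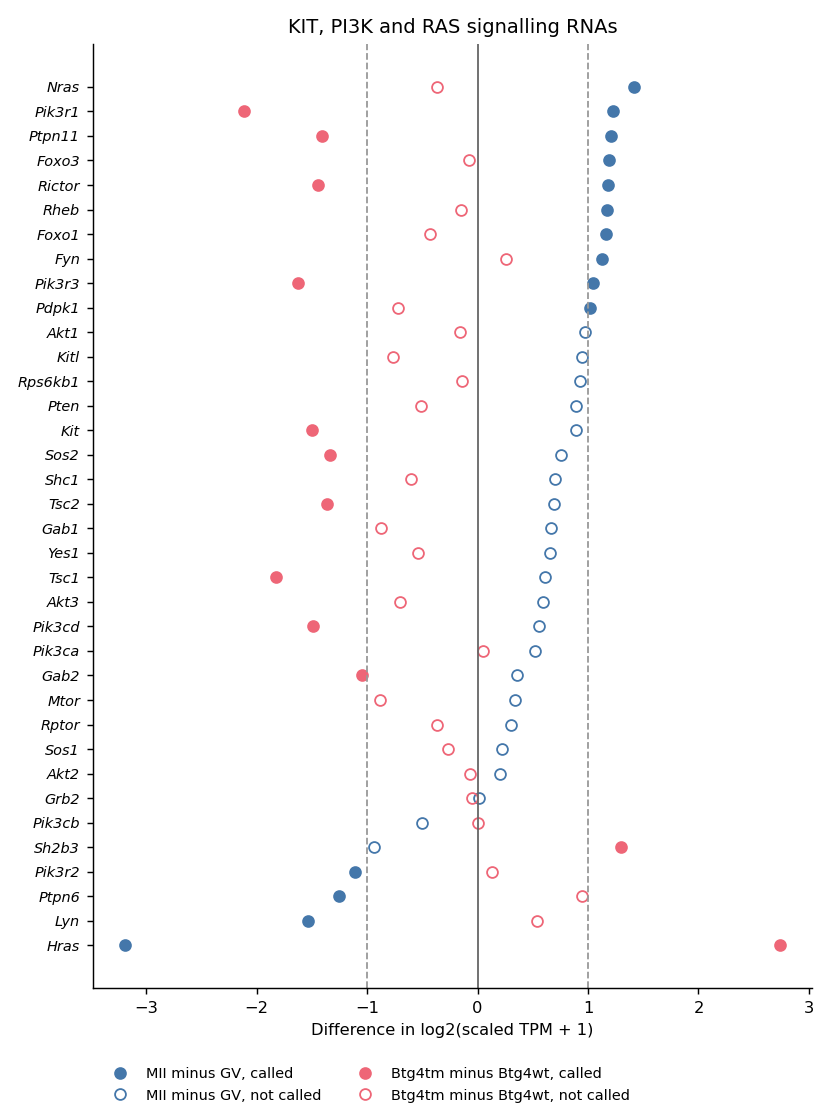
Difference in log2(scaled TPM + 1) (horizontal axis) for the 36 tested genes of KIT, PI3K and RAS signalling (rows, ordered by MII minus GV), with filled points for calls and open points for the rest. Of the 36, 10 were called higher in MII (0 under mitochondrial scaling), 10 were called lower in Btg4tm than in Btg4wt (1 under that scaling), and Hras lies opposite at -3.19 and 2.73.

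On the side of the TGF-beta family, 10 of 27 ligands and antagonists were tested, the 3 members included. In MII against GV 2 were called higher and 3 lower, and in Btg4tm against Btg4wt 1 each way, where mitochondrial scaling gave 0 and 8, and 5 and 0. For this list and the next, the shares over all genes were 12.5% higher and 24% lower in MII against GV. In Btg4tm against Btg4wt they were 18.1% and 7.94%. Bmp5, a BMP ligand, was called higher in MII than in GV by 1.13 (adjusted p = 7.93e-05), a direction that turned under mitochondrial scaling, and was more abundant than Bmp6, at 182 ± 7.83 scaled TPM in MII. Tgfb3 fell by 1.83 (1.1e-05) in the same comparison and was higher in Btg4tm than in Btg4wt by 0.94 (0.000584). Of 24 receptors and SMADs, 19 were tested, with 2 called higher and 1 lower in MII against GV and 0 and 1 in Btg4tm against Btg4wt (0 and 15, and 4 and 0, under mitochondrial scaling). Bmpr2, the type II receptor that binds BMP15 and GDF9, was called higher in MII by 1.45 (6.47e-05), which turned under mitochondrial scaling. It was called lower in Btg4tm than in Btg4wt by 1.41 (0.000123), which was no call under that scaling (-0.385, 0.132). Its level was 33.3 ± 1.34 scaled TPM in MII and 11.0 ± 1.33 in Btg4tm. Smad1, a transducer of BMP signals, was called higher in MII by 1.23 (0.000287) and turned as well, and Id3, a target of those signals, fell by 1.61 (0.0141), with 16.9 and 30.8 scaled TPM in GV against 3.69 and 12.0 in MII.

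Among 9 proprotein convertases, 6 were tested, and Furin was the one called, higher in MII than in GV and lower in Btg4tm than in Btg4wt, with neither call under mitochondrial scaling, where 0 of the 6 were called higher and 3 lower in the first comparison and 1 higher and 0 lower in the second. The FGF list had 13 of 20 genes tested, with 2 called each way in both comparisons (0 higher and 9 lower, and 3 and 0, under mitochondrial scaling). Beside both lists, 12.5% of all genes were called higher and 24% lower in MII against GV. The shares in Btg4tm against Btg4wt were 18.1% and 7.94%. Spry1, an inhibitor of FGF signalling, had the same pair of signs as Fgf8: it fell by 2.21 in MII against GV (adjusted p = 3.49e-05) and was higher in Btg4tm than in Btg4wt by 1.29 (0.00105). Spred2, another inhibitor of the RAS branch, was called the other way, at 1.43 (0.00144), which turned under mitochondrial scaling, and -1.56 (0.00128). The latter was no call under mitochondrial scaling (-0.555, 0.095). Fgfr2, an FGF receptor, was called higher in MII by 1.18 (0.00209), which turned under that scaling. In Btg4tm against Btg4wt it gave -0.45 with an adjusted p of 0.137, and this turned too, to 0.55 (0.125).

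In the IGF and mannose 6-phosphate list, 12 of 21 genes were tested. In MII against GV 1 was called higher and 5 lower (12.5% and 24% of all genes). In Btg4tm against Btg4wt 4 were called higher and 2 lower (18.1% and 7.94% of all genes). Mitochondrial scaling gave 0 and 9 in the first comparison, and 5 and 0 in the second. M6pr, the smaller mannose 6-phosphate receptor, fell in MII by 1.43 (adjusted p = 0.000161) and was higher in Btg4tm than in Btg4wt by 1.17 (0.000771), at 25.8 ± 0.491, 9.0 ± 1.70, 11.0 ± 1.82 and 25.7 ± 0.861 scaled TPM in GV, MII, Btg4wt and Btg4tm. Igf2r, the larger receptor, had no such pattern. Gnptg, part of the enzyme that makes the mannose 6-phosphate tag, gave -1.47 (1.37e-05) and 1.16 (7.68e-05), and Igfbp7, an IGF binding protein relative, -2.70 (7.52e-06) and 2.18 (3.61e-05). The sorting adaptor gene Gga3 was called in Btg4tm against Btg4wt, at -1.17 (0.000672), and read 0.19 with an adjusted p of 0.355 in MII against GV. Under mitochondrial scaling the latter turned and Gga3 was called lower in MII (-1.91, 4.1e-06). The former was then no call (-0.14, 0.596). All 4 genes of this list called higher in Btg4tm had been called lower in MII, where 92.5% of such genes over the whole table had been.

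Likeness of profile was measured as the root mean square difference of centred log2(scaled TPM + 1) over the 8 libraries, against 6881 other genes that averaged 10 scaled TPM or more. Such a distance is a description, since all points share the same libraries and scaling. The nearest genes to Kit were Ckap5 (0.067), Ccnb3 (0.068) and Ralgapb (0.07), and those to Furin were Ice1 (0.069), Mier3 (0.085) and Rnf111 (0.097). Nearest to Gdf9 were Anxa7 (0.054), Uba2 (0.077) and Emc10 (0.08), and to Bmp15 Hsp90b1 (0.107), Parp1 (0.122) and Celf1 (0.123). Bmp6 was closest to Rnf187 (0.08), Cpeb1 (0.081) and Rmdn1 (0.082). Cpeb1 encodes the protein that binds the polyadenylation element, and it read 319 ± 13.0 scaled TPM in GV, 130 ± 16.0 in MII, 151 ± 18.1 in Btg4wt and 276 ± 13.8 in Btg4tm. Fgf8 was closest to Rpl6 (0.119), Rflna (0.182) and Clpp (0.184). Among the members themselves the nearest pair was Kit and Furin (0.244), followed by Gdf9 and Igf2r (0.312) and by Kit and Bmp15 (0.322), and Fgf8 and Furin were farthest apart (2.60).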

How the data were processed

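Polyadenylated RNA was measured by Smart-seq2 in 8 libraries of mouse oocytes, 2 per group, grouped by their labels. Per the labels and methods, the authors trimmed reads (Trim Galore 0.6.10), aligned them to GRCm38 (HISAT2 2.2.0) and counted primary alignments with a mapping quality of at least 10 on exons of GENCODE vM25 without strand (featureCounts 2.0.6). The authors deposited TPM per gene symbol. The gene lengths and the filter behind the lists are not given in the sources used here, TPM keep no depth, and precision comes from the 2 libraries of each group.

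The listed TPM summed to 996199 to 998615. From the 15962 genes in all 8 tables, TPM were scaled by median of ratios. Genes reaching 1 TPM in 2 or more libraries were fitted as log2(TPM + 1) with limma 3.58.1 in R 4.3.3 (eBayes with trend). The members and lists were chosen with earlier results of these data known. From each list, the 4 called genes with the largest change and a mean of at least 10 scaled TPM are named, and for each such member the 3 nearest genes. Alternatives were other scalings, pseudocounts, filters, thresholds and fits, and leaving out each library. A gene of the KIT list and a sequence are not reported here.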

Additional observations from a re-analysis of the deposited data

How the results depend on the processing

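Over the alternatives, 134 of 152 counts of members called stayed within 1.5 times the main count, and 486 of 532 differences of single members kept their direction and stayed called or uncalled (some crossed an adjusted p of 0.05 alone), 24 gained a call, 2 lost it and 20 changed sign. Scaling to the mitochondrially encoded genes changed the most. In MII against GV it left 0 members called higher and 5 lower (1 and 2 with median scaling), with Gdf9 at -1.96, Bmp15 at -1.68, Kit at -1.30, Igf2r at -0.93 and Furin at -0.61, beside a median of -1.74 over all genes. In Btg4tm against Btg4wt it gave 4 members higher and 0 lower (1 and 2), with Bmp15 at 0.14, Kit at -0.43 (adjusted p = 0.0835 by limma) and Furin at -0.26 (0.334), beside a median of 0.88. In Btg4wt against MII it gave 1 higher (Bmp15 at 1.10, adjusted p = 0.0491), with Gdf9 at 0.32, Fgf8 at 0.40 and Igf2r at 0.13, and in Btg4tm against GV 1 lower, with Gdf9 at -0.19, Bmp15 at -0.44 and Furin at -0.37. Over all genes, it split the calls into 7 higher and 11403 lower in MII against GV and 6089 and 69 in Btg4tm against Btg4wt, where median scaling gave 1752 and 3351, and 2534 and 1109. TPM as deposited gave 1145 and 3699 in MII against GV, and quantile normalization 3102 and 2711, with 2081 and 1778 in Btg4tm against Btg4wt. Quantile normalization called 3 members higher in MII against GV and 1 higher in Btg4tm against GV, with Gdf9 at -0.033 in the first and Bmp15 at -0.15 in the second. A pseudocount of 0.1 called 2 higher in MII against GV and 1 in Btg4tm against GV. With no minimum fold, 4 members were called higher in MII against GV, 3 higher in Btg4tm against Btg4wt, and 1 each way in Btg4tm against GV. The cause was not tested.

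Leaving out 1 library at a time gave 1 to 2 members higher in MII against GV (2 without GV replicate 1, GV replicate 2 or MII replicate 2) and 0 to 1 higher in Btg4tm against GV (1 without Btg4tm replicate 1). In these fits the lone library was assumed to vary like the others. Bmp15 in Btg4tm against Btg4wt ran from -1.06 to -0.83 over them, across the fold limit. In Btg4wt against MII, where no member was called, Bmp6 ran from -0.06 to 0.22, Fgf8 from -0.24 to 0.11 and Furin from -0.074 to 0.13, with Bmp6 at -0.01 and Fgf8 at 0.07 among the values that changed sign, and Furin at -0.02. The fit with a replicate block gave the same counts of members (1 higher and 2 lower in MII against GV) and 1755 higher and 3339 lower over all genes in that comparison. Same-numbered libraries did not deviate together (correlations of -0.05 to 0.06). The labels do not say whether the numbers pair the libraries, and with 2 libraries per group these correlations cannot exclude it.

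With 2 libraries per group, a p that misses the threshold does not show that values were alike, and depth cannot be read from TPM. Oligo(dT) priming reads tailed RNA only, and protein and secretion were not measured here.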

Other observations

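The oocyte markers set the members in context. Of 12 such genes, 5 were called lower and 1 higher in MII against GV (24% and 12.5% of all genes). In Btg4tm against Btg4wt, 4 were called higher and 1 lower (18.1% and 7.94% of all genes). Figla, a transcription factor of the oocyte, had a profile of the same shape as Fgf8: it fell by 3.63 on the log2 scale in MII against GV (adjusted p = 4.78e-07 by limma), and was higher in Btg4tm than in Btg4wt by 2.80 (1.98e-06). Its levels were 123 ± 13.9 scaled TPM in GV, 9.01 ± 0.279 in MII, 11.7 ± 0.290 in Btg4wt and 87.6 ± 0.391 in Btg4tm. The zona pellucida genes Zp1, Zp2 and Zp3, whose proteins form the coat of the egg, were called lower in MII and higher in Btg4tm too. They varied more within groups, with Zp3 at 943 and 2503 scaled TPM in the MII libraries and 2221 and 1007 in the Btg4wt libraries, against 9989 and 8544 in GV and 7927 and 7596 in Btg4tm. Under mitochondrial scaling, 0 and 11 of the 12 markers were called higher and lower in MII against GV, and 9 and 0 in Btg4tm against Btg4wt.

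Among the cumulus and granulosa cell markers, 4 of 20 were tested. Inha, a subunit of inhibin, was called lower in MII against GV (-1.72, adjusted p = 0.00478) and higher in Btg4tm against Btg4wt (1.74, 0.00615) by limma. It read 4.37 and 2.11 scaled TPM in GV, 0 and 0.532 in MII, 1.88 and 1.09 in Btg4wt and 9.83 and 5.18 in Btg4tm, so a library listed it at 0.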
